A study of Homo sapiens with 12 samples.

Results

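DROSHA without its belt was compared with an empty plasmid in human HCT116 cells, a colorectal carcinoma line, in which the DROSHA gene had been knocked out. The comparison uses 6 of the 12 small RNA libraries of the study, chosen by their labels: 3 from cells given the empty pCK plasmid and 3 from cells given pCK coding for DROSHA with the belt deleted. The 3 libraries with wild-type DROSHA are brought in to show where the deletion differs from the intact enzyme, and the 3 with the mutant m4 enter the model only as further replicates of the spread. Cells of every group were DROSHA-KO and also received the plasmid pXC-NLS-DG4, with 4.5 µg of this plasmid and 4.5 µg of the pCK-DROSHA plasmid per transfection. What pXC-NLS-DG4 codes for, which residues the belt deletion removes, how many knockout clones were used and whether the repeats are separate cultures are not given in the sources used here. P-values therefore measure the spread between these libraries, which may be technical.

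DROSHA is the nuclear RNase III enzyme that, with its partner DGCR8, forms the Microprocessor. The complex cuts a primary miRNA transcript near the base of its stem and releases a hairpin, which DICER then trims to a duplex of a 5p and a 3p strand. In structures of the complex, a belt-like part of DROSHA lies around the RNA near the base of the stem. A few hairpins bypass the Microprocessor: mirtrons such as miR-877 are made by splicing, and the hairpins of miR-320 and miR-484 start at the transcription start site and carry a cap.

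The tissue label was set beside 9 colon epithelial miRNAs, and each had reads somewhere in the 6 libraries. Not every library had each of them. No read of miR-194-5p was found in the empty libraries, and some belt deletion library lacked it too. Some belt deletion library also lacked miR-141-3p, and some empty library miR-215-5p. Presence alone does not establish the tissue. Levels are given as scaled reads, the read count divided by a size factor set by 5 DROSHA-independent features: miR-320 with its copies summed, miR-484, and the mirtrons miR-1226, miR-1224 and miR-877. Table totals ran from 269550 to 407461 reads per library, and 310 of 1277 miRNAs passed the filter on low counts and were tested. DROSHA mRNA is not part of a miRNA table, so the plasmid's product could not be checked directly.

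The mature sequences that dominate the output of the belt deletion are shown with the seed, bases 2 to 8, in capitals. All sequences here are from RefSeq on GRCh38.p14, written 5′ to 3′. The let-7i-5p locus is chr12:62603691-62603712 on the plus strand and lies in an intron of the long noncoding gene AC048341.1. The miR-21-5p locus is chr17:59841273-59841294 on the plus strand, within an annotated exon of VMP1. The miR-10a-5p locus, chr17:48579904-48579926 on the minus strand, is embedded in the HOXB cluster, and miR-27b-3p, chr9:95085505-95085525 on the plus strand, lies in an intron of C9orf3. The miR-182-5p locus is chr7:129770447-129770470 on the minus strand.
miR-21-5p: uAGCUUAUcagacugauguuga
let-7i-5p: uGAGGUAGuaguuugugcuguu
miR-10a-5p: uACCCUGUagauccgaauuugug
miR-27b-3p: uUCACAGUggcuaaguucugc
miR-182-5p: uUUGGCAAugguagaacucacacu

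A second set holds near-identical miRNAs whose levels differed with the belt deletion. Members of a pair share the seed, which is again in capitals. The miR-181a-5p and miR-181b-5p sequences differ at 3 of 23 bases, let-7i-5p and let-7g-5p at 2 of 22, and miR-26a-5p and miR-26b-5p at 2 of the 21 bases they share.
miR-181a-5p: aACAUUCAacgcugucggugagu
miR-181b-5p: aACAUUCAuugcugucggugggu
let-7g-5p: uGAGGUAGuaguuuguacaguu
miR-26a-5p: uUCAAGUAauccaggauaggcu
miR-26b-5p: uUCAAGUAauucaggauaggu

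The third set is 3 hairpins whose strand balance differed from both the empty plasmid and wild type, with the 5p and 3p arms in capitals. MIR30A is at chr6:71403551-71403621 on the minus strand, in introns of LINC00472 and AL136164.2. MIR30E is at chr1:40754355-40754446 on the plus strand, in an intron of NFYC. MIR27A is at chr19:13836440-13836517 on the minus strand, within an exon of the antisense gene AC020916.1.
MIR30A: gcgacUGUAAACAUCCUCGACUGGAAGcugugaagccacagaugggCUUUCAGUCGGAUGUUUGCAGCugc
MIR30E: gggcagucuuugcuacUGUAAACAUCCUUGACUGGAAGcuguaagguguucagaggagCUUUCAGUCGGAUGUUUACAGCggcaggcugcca
MIR27A: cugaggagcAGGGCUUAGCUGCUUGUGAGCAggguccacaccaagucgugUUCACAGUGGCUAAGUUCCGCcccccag

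DROSHA without its belt raised 133 miRNAs over the empty plasmid, and 1 fell. Of the 310 tested, 42.9% rose, 0.323% fell and 43.2% changed in either direction (edgeR quasi-likelihood test, Benjamini-Hochberg adjusted p under 0.05). The median rise was 11.9-fold, and 89 of the 133 rose more than 8-fold and 25 more than 32-fold, with the 3 that the empty libraries lacked altogether (miR-129-5p, miR-34a-5p and miR-503-5p) counted at their lower bound. Groups did not overlap for 127 of the 133, against 156 of all 310 tested miRNAs (50.3%). The only fall was miR-6808-3p, with 27.8, 11.8 and 41.8 scaled reads with the empty plasmid and 10.6, 12.5 and 8.53 with the belt deletion (log2 -1.37, SE 0.51, adjusted p = 0.0227), so its groups overlapped. The call was lost without belt deletion repeat 2 or 3 or empty repeat 3, with adjusted p up to 0.269, and by DESeq2's Wald test (adjusted p = 0.0655). In these bulk libraries a larger share of cells taking up the plasmid and more miRNA made per cell cannot be told apart.

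The risen miRNAs took 2.64 to 3.43% of the reads in the empty libraries and 45.2 to 53.2% with the belt deletion. In the wild-type libraries the same miRNAs took 43.9 to 63.7%. DROSHA-independent miRNAs, chiefly miR-320a-3p and miR-320b, went from 79.3 to 83.8% of reads down to 36.7 to 46.1%. The log2 ratio of all other miRNAs to the DROSHA-independent ones was -1.94, -2.07 and -2.37 in the empty libraries and 0.59, 0.79 and 0.22 with the belt deletion. Every belt deletion library was above every empty library, a difference of 2.66 or 6.31-fold. A two-sided exact permutation test gave p = 0.1, which is the lowest value 6 libraries allow. Against wild type (0.98, 1.32 and 0.12) the ratio was 0.27 lower in log2, 1.21-fold, within the spread of the libraries (exact permutation p = 0.5).

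**Figure D1:**
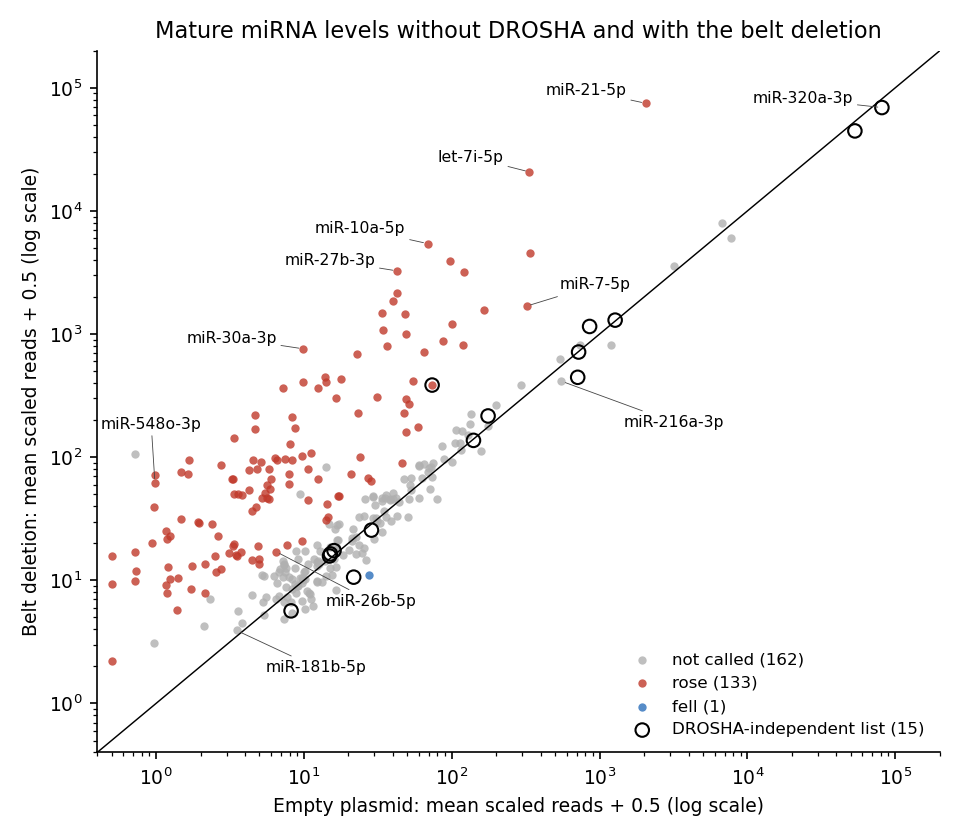
Each point is 1 of the 310 tested miRNAs, with its mean scaled reads plus 0.5 in the 3 empty libraries (x, log scale) and the 3 belt deletion libraries (y, log scale). The line marks equal levels. The 133 that rose lie above it, and 14 of the 15 DROSHA-independent miRNAs (open circles), most of which enter the scaling, were not called.

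The 5 features used for scaling were not equally steady, which bounds how small a change can be read. Between belt deletion and empty plasmid their log2 differences were -0.23 for miR-320, -0.68 for miR-484, -0.04 for miR-877, 0.43 for miR-1224 and 0.24 for miR-1226. Of the 15 tested miRNAs of the DROSHA-independent list 1 rose, and their median log2 difference was -0.01, beside 0.73 over all tested. Most of these 15 enter the size factors, so the scaling holds their median near 0 and the value is no separate check. The one that rose, miR-320d, had 38.4, 85.5 and 95.6 scaled reads with the empty plasmid and 601, 448 and 106 with the belt deletion. Its lowest belt deletion library lay close to the highest empty one, and reads of the near-identical miR-320 copies may have been divided among them. With size factors from TMM, a scaling that assumes most miRNAs stay equal, the median over all tested fell by 0.75 in log2, and 114 miRNAs rose and 42 fell, 6 of those 42 from the DROSHA-independent list, of which miR-320d was no longer called higher. All 133 kept a positive difference under every scaling tried.

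The most abundant of the risen miRNAs was miR-21-5p, a miRNA that is high in many carcinomas and represses PDCD4. It had 2466, 1780 and 1912 scaled reads with the empty plasmid and 77692, 79198 and 67740 with the belt deletion. The groups lay far apart, 36.5-fold (log2 5.19, SE 0.41, adjusted p = 2.49e-19). Its share of all reads went from 1.04 to 1.31% up to 23.9 to 27.3%. With wild-type DROSHA it had 92757, 102758 and 47335 scaled reads, a range that encloses the belt deletion libraries (log2 belt deletion minus wild type -0.11, SE 0.34, adjusted p = 0.858).

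The let-7i-5p miRNA, of the family that represses RAS and HMGA2, came next among the risen. Its levels were 417, 291 and 298 with the empty plasmid and 21623, 22513 and 18072 with the belt deletion. This was a 61.9-fold rise without overlap (log2 5.95, SE 0.40, adjusted p = 2.44e-22). Wild-type DROSHA gave 29934, 24201 and 16381, and the difference from the belt deletion was not called (log2 -0.18, SE 0.32).

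The largest rise among miRNAs of at least 100 scaled reads was that of miR-30a-3p, from 8.27, 11.8 and 7.97 to 779, 899 and 599 scaled reads, or 80.1-fold (log2 6.32, SE 0.42, adjusted p = 1.07e-22). The HOXB-embedded miR-10a-5p rose as far, from 74.5, 66.8 and 63.1 to 4710, 6771 and 4810 (79.6-fold). For miR-27b-3p, a regulator of lipid and vascular genes, the levels were 54.2, 39.6 and 32.5 against 3315, 3936 and 2525 (77.3-fold). In these 3 miRNAs the lowest belt deletion library exceeded the highest empty library many times over.

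The rest of the 10 largest rises ran from 44.9-fold for miR-183-5p to 53.8-fold for miR-28-3p, beside let-7i-5p. The miR-183, miR-96 and miR-182 cluster, which is transcribed as 1 unit and is high in sensory organs and many epithelial tumours, supplied a pair of them. The miR-182-5p levels were 55.7, 38.3 and 31.9 with the empty plasmid and 1914, 2611 and 1944 with the belt deletion. The third member, miR-96-5p, had 1, 1 and 0 reads in the empty libraries and reached 72.1, 65.2 and 74.2 scaled reads. None of the 3 differed detectably from wild type, where miR-182-5p stood at 2459, 2443 and 1338.

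Some products of the belt deletion were missing from the empty libraries. No read of miR-129-5p was found in the empty libraries, and the belt deletion gave 15.8, 17.6 and 12.8 scaled reads, at least 21.9-fold above the level that 3 reads over the empty group would give. By the same floor miR-503-5p was at least 12.7-fold higher, with 7.04, 16.3 and 3.41. Of all 1277 miRNAs, 37 were read in all 3 belt deletion libraries and in no empty library, and 7 showed the reverse. These 37 were low, with a median of 2.29 and a maximum of 15.4 scaled reads. At this depth most of them could not be tested.

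The tested members of the main miRNA families rose as groups. All 6 tested miRNAs of let-7 group II, whose precursors end in a short overhang, rose (median log2 3.30), as did the 4 of group I with let-7a (2.61). The 9 tested members of the miR-17-92 cluster and its paralogs, which promote proliferation, all rose (median 3.30, range 1.57 to 4.91). So did the 8 of the miR-23/27/24 clusters, with a median of 4.57 and a range from 3.33 to 6.27. The miR-221 and miR-222 group, which represses the cell cycle inhibitor CDKN1B, rose in 4 of 4. These medians compare with 0.73 over all tested miRNAs, 42.9% of which rose. Among tested miRNAs with a registry number under 700, as all these members have, 123 of 147 rose, with a median log2 of 3.30. The let-7 and miR-17-92 groups were thus at or below that median, and the miR-23/27/24 clusters above it. The low-count filter drew on all 12 libraries, so a miRNA could enter through the groups where it was high, which favours rises among those tested. With no filter 6 of 11 names of let-7 group II, 4 of 5 of group I, 9 of 19 of miR-17-92 and 8 of 11 of miR-23/27/24 were called higher. With only the compared groups in the fit, 110 of the 133 risen miRNAs passed the filter and 109 kept their call.

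Intestinal and colon cancer miRNAs, among them miR-21, miR-31, miR-135b and miR-224, rose in 9 of 9 tested, with a median log2 of 3.45. With no filter 10 of 16 were called higher. Over all tested 42.9% rose, with a median of 0.73. Of those with a registry number under 700, 123 of 147 rose, with a median of 3.30, near that of the intestinal group. The p53-linked miR-192-5p, a marker of gut epithelium, went from 3.76, 0.695 and 3.32 to 9.68, 25.1 and 13.7 scaled reads. The miR-200 family, an epithelial repressor of the ZEB transcription factors, stood lower: 3 of 5 rose, with a median log2 of 0.97. None was called under TMM scaling or without belt deletion repeat 2, and 1 was called without empty repeat 2 or 3. For miR-200c-3p the empty libraries had 51.9, 45.2 and 39.2 scaled reads and the belt deletion libraries 53.7, 163 and 52.9. A single library, belt deletion repeat 2, was thus far above the rest. For miR-200b-3p the same library had 123 scaled reads and the others 43.1 and 35.

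The miR-10 superfamily, which also holds the miR-99, miR-100 and miR-125 groups, rose in 8 of 10, and the miR-30 family in 7 of 9. The members not called were miR-10a-3p (adjusted p = 0.0869) and miR-99a-5p in the first, and miR-30b-3p and miR-30c-1-3p in the second. The intronic group of miR-103a, miR-107, miR-378a, miR-26a and miR-26b rose in 5 of 5, with a median log2 of 4.89. The LINE2-derived miR-28 and miR-151a group rose in 3 of 3. These counts cover tested miRNAs and stand beside 42.9% over all tested and 123 of 147 among registry numbers under 700. With no filter they were 9 of 13, 7 of 11, 5 of 12 and 3 of 5 in turn. Among annotations inside snoRNAs or tRNAs, which need no Microprocessor cut, 1 of 5 rose (miR-1260b, whose groups overlapped). Under TMM scaling 1 fewer was called in let-7 group I, miR-221 with miR-222, the miR-10 superfamily, the intronic group and the LINE2-derived group, and miR-1260b was not called.

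**Figure D2:**
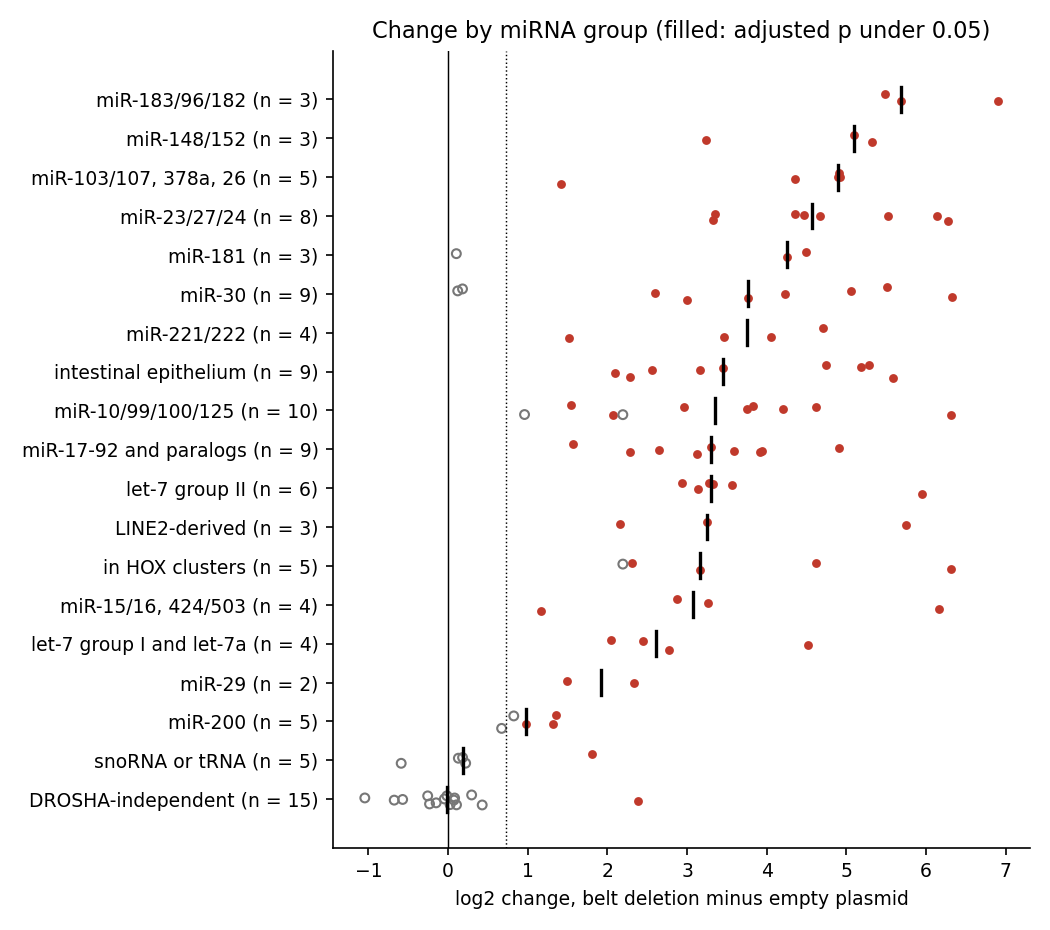
Each point is a tested miRNA, placed by its log2 difference between belt deletion and empty plasmid. Rows are groups with the number tested, filled points had an adjusted p under 0.05, bars are group medians and the dotted line is the median of all tested, 0.73. The DROSHA-independent and snoRNA or tRNA groups lie near 0, and the miR-183 cluster has the highest median, 5.68. Most of the DROSHA-independent group enters the scaling, which holds it near 0.

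Markers of other cell types ranged from no read up to 461 scaled reads with the belt deletion, for miR-126-3p. The highest of the colon epithelial markers, miR-200c-3p, reached 163 there. Of 13 such miRNAs 5 had no read in the 6 libraries: miR-1 and miR-133a and miR-206 of striated muscle, miR-124 of neurons and miR-223 of myeloid cells. The summed level of all their mature strands, of which 4 were tested, was 218 to 297 in the empty libraries and 573 to 803 with the belt deletion. The endothelial miR-126-3p, from an intron of EGFL7, rose from 12, 7.65 and 8.63 to 461, 435 and 316. The neuronal miR-9-5p rose as well, from 18.6 to 22.6 scaled reads up to 50.1 to 112 (log2 1.82). Hepatic miR-122-5p and smooth muscle miR-143-3p were not called. The part of these markers in the result was not tested.

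Of the miRNAs tested, 162 outside the DROSHA-independent list were not called. Their number among high registry numbers was large: 123 of 147 tested miRNAs numbered under 700 rose, 7 of 31 from 700 up to 2000, and 3 of 132 from there on. These bins were chosen after the values were seen, and the early entries are mostly conserved miRNAs. The most abundant of the uncalled were miR-7706 and miR-3615. The former had 8349, 5626 and 6351 scaled reads with the empty plasmid and 6988, 10315 and 6576 with the belt deletion. For miR-3615 the levels were 9471, 5754 and 8055 against 7179, 5449 and 5567. Both overlapped between groups, as did miR-7974, miR-10399-3p and miR-3928-3p. For miR-1292-5p, with 561, 517 and 551 against 625, 693 and 573, every belt deletion library was above every empty one, but the difference of 0.21 in log2 was not called. The uncalled set had 10 miRNAs at an unadjusted p under 0.05.

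Hairpin features were read for the 213 hairpins that RefSeq holds under 1 locus, represented by their most abundant arm, and are given as a description. The hairpins of risen miRNAs had a median GC content of 53.4% and a median length of 85.5 bases, and those not called 57.5% and 72 bases. The letters UGU or GUG occurred between the arms on the hairpin strand in 46 of 74 risen hairpins (62.2%) and in 29 of 75 not called (38.7%), beside 46% of 739 RefSeq hairpins. The letters UG lay 14 bases before the 5p start, the usual place of the basal UG motif, in 9 of 40 risen hairpins (22.5%) and in 0 of 19 not called, beside 18.2% of 336 RefSeq hairpins whose annotated sequence reaches that far. A match says only that the letters are there. Risen miRNAs mostly had registry numbers under 700 and those not called mostly higher ones, and no set matched for this was compared. Belt deletion was also set against wild type over the hairpins with this window that rose with wild-type DROSHA, a set chosen by that enzyme. The median log2 difference was -0.57 in the 9 with UG and 0.04 in the 31 without. Among the 9 were miR-34a-5p and miR-129-5p, which had no read in the empty libraries. For UGU or GUG the order was the reverse, with -0.18 in the 45 with the letters and -0.54 in the 28 without. These differences were not tested.

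The belt deletion was then set against wild-type DROSHA, to show which miRNAs it made at another level than the intact enzyme. Both share the empty libraries as a base, so the comparison with wild type was made directly. Of 310 tested, 29 were lower than with wild type (9.35%) and 10 were higher (3.23%), 12.6% in all. Groups did not overlap for 28 of the 29 and for the 10, beside 100 of all 310 (32.3%). Of the 29, 26 had nevertheless risen over the empty plasmid, and of the 10, 9 had. Over all tested the median log2 difference was 0.04. Among 5p strands 18 of 178 were lower and 2 higher, and among 3p strands 11 of 132 were lower and 8 higher. Of these 8, miR-3158-3p and miR-625-3p were merged with the 5p names that had matching reads, so their arm cannot be told.

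**Figure D3:**
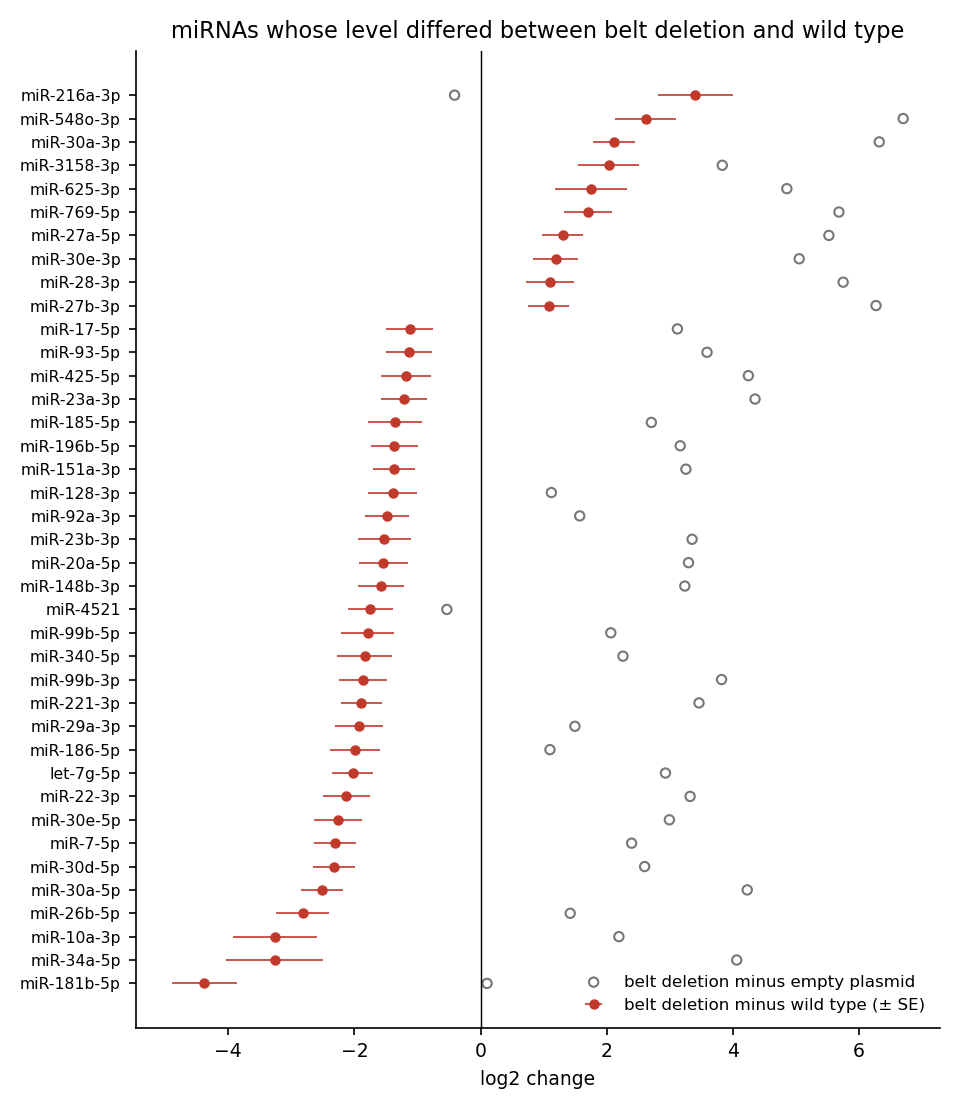
Filled points give the log2 difference belt deletion minus wild type with its SE for the 39 miRNAs called in that comparison, 29 lower and 10 higher. Open circles give belt deletion minus empty plasmid for the same miRNAs. Most open circles lie above 0, and those of miR-181b-5p, miR-4521 and miR-216a-3p lie near it or below.

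The sharpest loss was that of miR-181b-5p, of a family that tunes lymphocyte signalling. It had 2.26, 2.78 and 3.98 scaled reads with the empty plasmid, 3.52, 5.02 and 1.71 with the belt deletion, and 83.2, 73.8 and 54.1 with wild type. The belt deletion libraries overlapped the empty ones and lay far below wild type, 20.8-fold (log2 -4.38, SE 0.51, adjusted p = 3.17e-10). Its close relative miR-181a-5p rose from 4.51, 3.48 and 5.98 to 86.2, 84 and 104 with the belt deletion, and its difference from wild type (155, 140 and 110) was not called. The MIR181A1 and MIR181B1 hairpins lie side by side on chromosome 1, as do MIR181A2 and MIR181B2 on chromosome 9. Each mature sequence is the same from both places, so its reads cannot be assigned to either. The miR-181b-5p level rests on 2 to 4 reads in each belt deletion library, so a fall below the empty level could not be seen at this depth.

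Among miRNAs of at least 100 scaled reads, miR-26b-5p was the farthest below wild type. It comes from an intron of CTDSP1 and shares its seed with miR-26a-5p. Levels were 9.78, 4.17 and 3.98 with the empty plasmid, 15.8, 28.8 and 5.12 with the belt deletion and 124, 130 and 90.2 with wild type. The belt deletion was 7.07-fold lower than wild type (log2 -2.82, SE 0.42, adjusted p = 2.92e-07), and 1 of its libraries fell within the range of the empty ones. For miR-26a-5p the belt deletion libraries held 1021, 936 and 1020 against 1576, 1157 and 1024 with wild type, a difference that was not called (log2 -0.34, SE 0.31).

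The miR-7-5p level, an abundant brake on EGFR signalling, was intermediate. Its empty libraries had 387, 299 and 275 scaled reads, those of the belt deletion 1612, 1900 and 1546, and those of wild type 10460, 9537 and 5015. All 3 groups were apart from each other, with a 5.26-fold rise over the empty plasmid and a 4.95-fold shortfall against wild type (log2 -2.31, SE 0.34, adjusted p = 1.23e-07). The table lists its reads also under miR-3529-3p, and both names were merged.

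The same intermediate order held for miR-30d-5p, let-7g-5p, miR-22-3p and miR-221-3p. For miR-30d-5p the levels were 54.2, 45.2 and 45.8, then 171, 351 and 362, then 1728, 1578 and 1129 (5.02-fold below wild type). For let-7g-5p they were 76.7, 43.1 and 43.8, then 391, 487 and 374, then 1897, 1903 and 1284. This let-7 copy stood 4.06-fold below wild type (log2 -2.02, SE 0.33, adjusted p = 1.05e-06) while let-7i-5p, with the same seed, did not differ detectably. The let-7g-5p miRNA was the only one of the 9 let-7 and miR-98 5p strands with this seed that was called lower than wild type.

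Neighbours within a cluster did not always move alike. On the X chromosome miR-221-3p was 3.71-fold lower than wild type (813, 625 and 697 against 3152, 3056 and 1706), while miR-222-3p, at 2899, 3125 and 3462 against 4069, 3321 and 1844, was not called. In the chromosome 19 cluster of miR-99b, let-7e and miR-125a, both miR-99b strands were lower and let-7e-5p and miR-125a-5p were not called. For miR-99b-5p belt deletion repeat 2 again stood apart, with 184 scaled reads beside 52.8 and 60.6. The differences between neighbours were not themselves tested. In the miR-17-92 group 4 of 9 were lower than wild type, beside 9.35% of all tested. All 9 had risen over the empty plasmid, and among the 133 risen miRNAs 26 were lower than wild type. They were miR-17-5p, miR-20a-5p, miR-92a-3p and miR-93-5p, lower by 2.18 to 2.91-fold.

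The most abundant miRNA that rose with wild type and was not called with the belt deletion was miR-4521. Its levels were 1270, 1452 and 843 with the empty plasmid, 993, 692 and 776 with the belt deletion and 2460, 3788 and 2043 with wild type. The first pair of groups overlapped, and the belt deletion was 3.37-fold below wild type (log2 -1.75, SE 0.36, adjusted p = 0.000147). Wild type raised 5 miRNAs that were not called with the belt deletion (miR-10a-3p, miR-181b-5p, miR-374a-5p, miR-4517 and miR-4521). The belt deletion raised 6 that were not called with wild type (miR-1260b, miR-200c-3p, miR-320d, miR-4688, miR-6859-5p and miR-760). Of these 11, miR-10a-3p, miR-181b-5p and miR-4521 differed between both enzymes when that difference was tested.

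**Figure D4:**
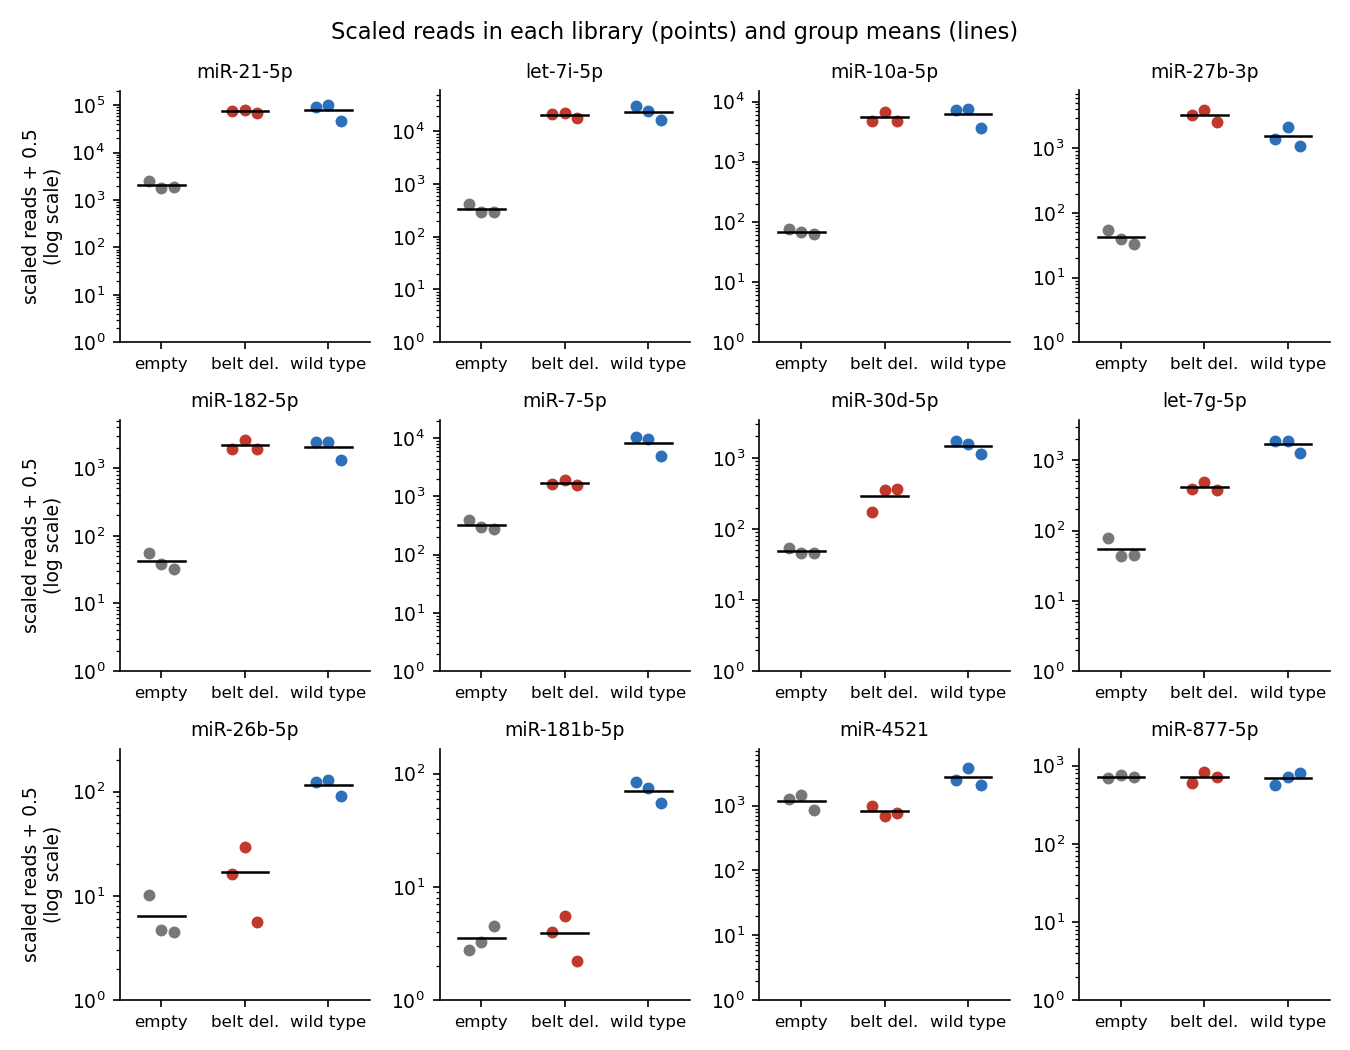
Scaled reads plus 0.5 on a log scale in each of the 3 libraries with empty plasmid, belt deletion and wild type, with lines at the group means. The upper row and miR-182-5p overlap wild type or exceed it, miR-7-5p, miR-30d-5p and let-7g-5p stop between, and miR-181b-5p and miR-4521 stay with the empty plasmid. DROSHA-independent miR-877-5p, which enters the scaling, is level across groups.

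Of the 10 miRNAs above wild type, the 4 that lay farthest above it among those of at least 100 scaled reads are described first. The farthest was miR-216a-3p, with 733, 466 and 455 scaled reads in the empty libraries, 641, 117 and 484 with the belt deletion and 55.9, 36 and 24.8 with wild type. The belt deletion was not called against the empty plasmid (log2 -0.41), and the wild-type libraries were the low ones (log2 belt deletion minus wild type 3.41, SE 0.60, adjusted p = 0.00104). The miR-769-5p level rose from 2.26, 5.56 and 4.65 to 190, 315 and 160, above the 67.8, 91.7 and 45.1 of wild type (3.26-fold, adjusted p = 0.000375). Its locus is in an intron of CCDC61. The remaining pair, miR-30a-3p and miR-27a-5p, are described below with their partner strands. Also above wild type were miR-27b-3p, which had 1384, 2151 and 1089 scaled reads there (2.11-fold, adjusted p = 0.0138), and miR-28-3p, with 247, 527 and 319 against 177, 227 and 108 (2.14-fold, adjusted p = 0.0437). The groups did not overlap in either. Without belt deletion repeat 1 or 2 or wild-type repeat 1 or 3 the call of miR-27b-3p was lost, with adjusted p up to 0.112. That of miR-28-3p was lost without belt deletion repeat 2 or 3 or wild-type repeat 1 or 3, with adjusted p up to 0.312.

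For miR-30a-3p the belt deletion libraries stood 4.34-fold above wild type, which had 226, 156 and 142 scaled reads (log2 2.12, SE 0.34, adjusted p = 1.05e-06). Its partner strand miR-30a-5p moved the other way: 12.8, 22.3 and 12.6 with the empty plasmid, 246, 337 and 317 with the belt deletion and 1359, 2529 and 1263 with wild type. The 5p strand was thus 5.71-fold below wild type (log2 -2.51, SE 0.34, adjusted p = 1.79e-08). DICER releases both strands of a duplex together, and usually 1 of them is kept by an Argonaute protein.

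The 3p share of the reads of mir-30a was 39.3, 34.7 and 38.7% with the empty plasmid, 76, 72.7 and 65.4% with the belt deletion and 14.3, 5.83 and 10.1% with wild type. The 3 groups did not overlap. In a count model of both arms the log2 ratio of 5p to 3p was lower with the belt deletion by 4.57 against wild type (SE 0.47, adjusted p = 1.14e-18, edgeR) and by 2.07 against the empty plasmid (SE 0.54, adjusted p = 0.0026). The empty values rest on 28 to 49 reads of both arms together, and those of the belt deletion on 986 to 1165.

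The related mir-30e behaved alike against wild type. Its 3p share was 71, 62.1 and 58.6% with the empty plasmid, 90.3, 86.5 and 87.6% with the belt deletion and 50.2, 32 and 36.2% with wild type. The difference from wild type was called (log2 -3.52, SE 0.55, adjusted p = 9.11e-09), and so was that from the empty plasmid (adjusted p = 0.021), which was lost without any 1 of 5 of the 6 libraries, with adjusted p up to 0.155. The 5p strands of mir-30a and mir-30e differ at 1 of 22 bases, and so do the 3p strands, so the reads of these hairpins may have been divided between them. Of the other 5p strands of the family, miR-30d-5p was lower than wild type, as given above, and miR-30b-5p and miR-30c-5p were not called.

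The strand balance of mir-27a moved towards 5p. Its 3p share was 81.5, 58.4 and 66.7% with the empty plasmid, 30.8, 33.2 and 32.3% with the belt deletion and 62.3, 47.3 and 61.9% with wild type. No belt deletion library overlapped either group (log2 ratio of 5p to 3p 2.25 higher than empty, SE 0.47, adjusted p = 7.19e-05). Against wild type it was 1.51 higher (SE 0.45, adjusted p = 0.00913), which was lost without either of 2 belt deletion or 2 wild-type libraries, with adjusted p up to 0.126. In scaled reads miR-27a-5p was at 1884, 2223 and 1410 with the belt deletion, against 844, 833 and 559 with wild type. The partner strand miR-27a-3p did not differ detectably from wild type.

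For mir-222 the 3p share was 92.4, 85 and 86.8% with the empty plasmid and 97.9, 98.6 and 99% with the belt deletion (log2 -3.18, SE 0.52, adjusted p = 1.21e-07). Wild type, at 99.1, 98.1 and 98.6%, was not called different from the belt deletion. The fifth hairpin called against the empty plasmid, mir-1307, lost its call without belt deletion repeat 1, empty repeat 1 or empty repeat 3, with adjusted p up to 0.476. The count model called 5 of 54 hairpins with both arms measured (9.26%) against the empty plasmid, and 5 of 54 against wild type, the other two being mir-10a and mir-216a. The call of mir-216a was lost without belt deletion repeat 1 or wild-type repeat 3. A limma test of the log2 arm ratio with a pseudocount of 1 called 21 of the 54 (38.9%) against the empty plasmid. It included the 5, and 12 of the 21 had an arm with under 3 reads in every empty library, where the pseudocount sets the ratio.

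**Figure D5:**
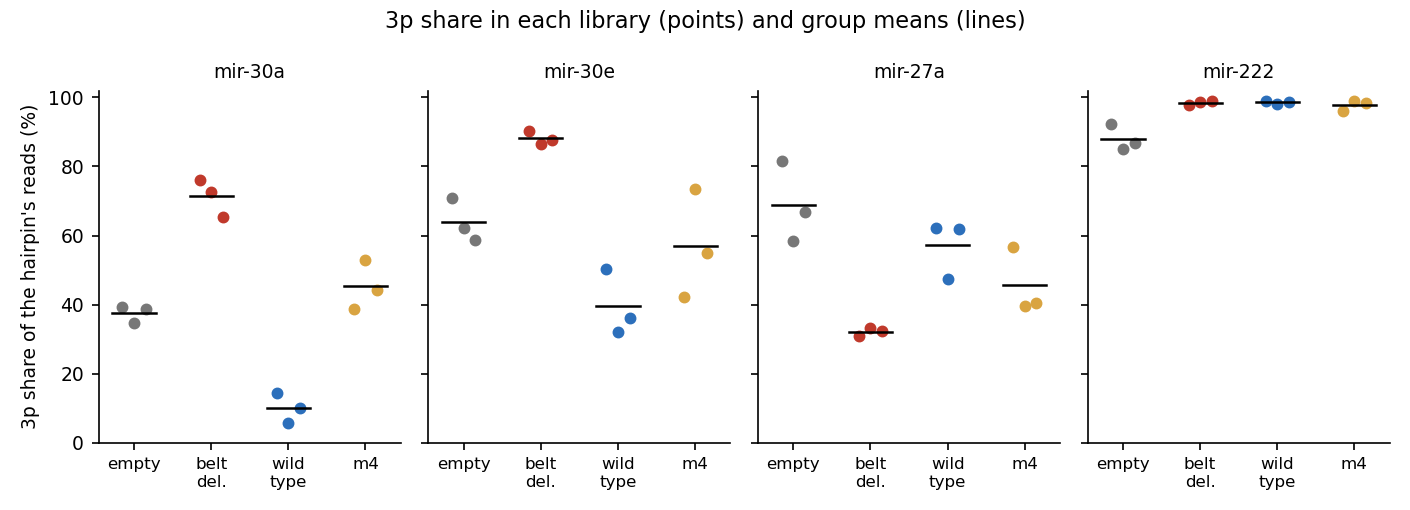
The 3p strand's share of each hairpin's reads, in percent, in every library of the 4 groups, with lines at the group means. The belt deletion libraries of mir-30a (65.4 to 76%) and mir-30e (86.5 to 90.3%) lie above wild type, those of mir-27a (30.8 to 33.2%) lie below, and those of mir-222 match it.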

How the data were processed

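Per the labels' protocols, RNA of 19 to 24 nt was size-selected from 10 µg of total RNA and cloned with a NEBNext small RNA kit. The authors deposited raw read counts per hairpin and mature miRNA, and cutadapt, Bowtie2 and hg38 are named per the submitters' processing notes. Versions, the miRNA annotation and the treatment of reads that fit several places are not given in the sources used here. Depth was 202474 to 332081 reads per library of the 6 after the steps below.

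Blank cells (42.7%) were read as 0. For 84 names under several hairpins the line with most reads was kept, and 9 pairs of names whose reads matched were merged (within 5 reads or 5% in each library, over 120 reads in all), leaving 1277 miRNAs. Size factors were the median ratio over the 5 DROSHA-independent features that reached 20 reads in each of the libraries. The filter was filterByExpr. Groups were compared in a single model of the 12 libraries, with no covariate, by the robust quasi-likelihood F test of edgeR 4.0.16 under R 4.3.3, with Benjamini-Hochberg adjustment over 310 miRNAs. This test gave the adjusted p-values printed, and for strand shares from edgeR's test of the arm by group term with a block per library, which was chosen after the data were seen. The planned arm test used limma 3.58.1 with hairpins of at least 20 reads in every library. SE is the log2 difference divided by the square root of F. Calls need an adjusted p under 0.05. The scripts were tested on simulated data, where estimates of the edgeR test for belt deletion against empty plasmid leaned upwards. Unchanged miRNAs had a median log2 of 0.25, and 4.8% of them were called. True log2 differences of 1 and -2 gave medians of 1.34 and -1.63. A true difference of 2 was called in 100% and one of -2 in 68.8%, so falls were found less often than rises.

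Alternatives were other scalings, DESeq2 1.42.0, other filters, only the groups compared, the replicate block and leaving out each library. Named miRNAs were the 10 largest rises of at least 100 scaled reads without overlap, the most abundant, the DROSHA-independent, those absent from the empty libraries, the largest uncalled and the largest differences from wild type. Others belong to the lists, or were picked with their values in view. The members and lists were chosen with earlier results of these data known. Gene positions are from RefSeq GRCh38.p14, and host genes from GENCODE on the same build. No sequence is printed for miRNAs such as miR-30d-5p and miR-320a-3p.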

Additional observations from a re-analysis of the deposited data

How the results depend on the processing

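The count of 133 risen miRNAs stayed between 109 (total counts) and 164 (no filter) under every alternative, and between 128 and 138 when 1 library was left out. The count of falls was 1 and moved with scaling: 42 with TMM, 34 with DESeq2 size factors, 33 with total counts, 0 with the sum of the reference reads, 2 without miR-320 in the reference, 3 without miR-484, and 0 without either miR-1224 or miR-1226. It was 4 with only the compared groups in the fit and 0 to 3 when 1 library was left out. At an unadjusted p under 0.05 there were 5 falls, and DESeq2's Wald test called 1, which was miR-484 (log2 -0.68, adjusted p = 0.00781) and not miR-6808-3p. The 10 miRNAs above wild type became 26 with TMM, 17 with DESeq2 size factors, 16 without miR-1224 in the reference, 6 without miR-484 and 5 with the sum of the reference reads, and 6 to 8 when 1 library was left out (6 without belt deletion repeat 2 or wild-type repeat 3). The 29 below wild type stayed between 22 and 37. The arm test by limma called 21 of 54 hairpins, edgeR on counts 5 of 54, and limma with at least 100 reads of both arms 8 of the 17 that this left. The log2 ratio of 2.66 was 1.79 as a geometric mean over miRNAs and 1.90 without the 3 most abundant others. Causes were not tested.

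Changes of sign occurred only in miRNAs not called against the empty plasmid. With TMM, DESeq2 size factors and total counts in turn, log2 was -0.55, -0.44 and -0.54 for miR-7706, -0.70, -0.59 and -0.75 for miR-320c, -0.34, -0.25 and -0.36 for miR-1224-5p, -0.59, -0.46 and -0.59 for miR-7974, -0.63, -0.53 and -0.64 for miR-10399-3p, -0.54, -0.44 and -0.57 for miR-1292-5p, and -0.40, -0.30 and -0.38 for miR-3928-3p. For miR-320c it was -0.06 without miR-484 in the reference, and -0.06 to 0.07 when 1 library was left out. For miR-877-5p it was 0.19 with the sum of the reference reads, 0.08 without its own feature in the reference, 0.18 without miR-1224, 0.11 without miR-1226, and -0.13 to 0.09 without a library. Leaving out a library gave -0.09 to 0.72 for miR-7974, -0.02 to 0.29 for miR-10399-3p and -0.87 to 0.04 for miR-216a-3p. The naming rules gave 37 results, recomputed as 812 values. Of these values 766 kept direction and call, 12 became called, and 1 lost its call (miR-27a-5p against wild type with the sum of the reference reads, adjusted p = 0.0976). The calls of miR-27b-3p and miR-28-3p above wild type were not among the 37. Both were lost with the sum of the reference reads (adjusted p = 0.295 and 0.353) and without miR-484 in the reference (0.0514 and 0.128). That of miR-28-3p was also lost by DESeq2's Wald test (adjusted p = 0.0512).

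The repeat numbers did not pair the libraries: same-numbered empty and belt deletion libraries correlated at -0.214 to -0.0764 in their deviations from the group means. With a replicate block 132 miRNAs rose, 1 fell, 9 were above and 29 below wild type, and limma called 21 hairpins. Low counts limit miR-181b-5p, miR-34a-5p and the miRNAs absent from the empty libraries.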
